A study of Arabidopsis thaliana with 35 samples.

Results

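The genes described here are those whose transcripts were almost lost from the shoots of water-treated *Arabidopsis thaliana* plants after 13 d without watering. A gene was selected on the deposited normalized counts when its log2(group mean + 1) at 13 d after drought (DAD) was at least 4.5 below that at 0 DAD in water-treated plants, its mean at 0 DAD was at least 100, and its log2 level at 10 DAD was less than 1 above that at 0 DAD. This left 272 of the 27417 genes of the table and 272 of the 7964 genes with a mean of at least 100, and the limit at 10 DAD removed 3 genes that had passed the fall. The levels of water-treated plants at 0, 10 and 13 DAD chose the members, so they are described without a test. The fall was tested in ethanol-treated plants, whose libraries the rule did not use.

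The study asked whether ethanol given to the roots changes how plants respond to later drought. Wild-type plants of the Col-0 accession, all of one genotype, spent 9 d on MS medium and 5 d on ceramic granular soil, and then stood in trays with 10 mM ethanol or with water for 3 d before watering ended. Shoots were taken before the pretreatment (untreated plants), and at 0, 10 and 13 DAD from water-treated and from ethanol-treated plants, with 5 libraries in each of the 7 groups and 35 in all. The labels give no age at harvest beyond these days and do not say whether the 5 libraries of a group came from separate pots or pooled plants, so p-values measure the spread between these libraries.

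Libraries held 3589540 to 13440389 gene counts. Of 4 leaf markers, *RBCS1A*, *RBCS3B* and *CAB1* are themselves members and *LHCB2.1* is not, and their summed level was 403615 to 591079 normalized counts in the 15 libraries taken at 0 DAD or before the pretreatment and 14386 to 51676 at 13 DAD. The 7 root markers had summed normalized counts of 4.23 to 20.5 at 13 DAD in water-treated plants, against at most 11.5 in any other group, and 6 of the 7, all but *SHV2*, were at 0 in at least 1 library of every group. The epidermis marker *PDF1* fell from at least 2475 before drought to at most 540 at 13 DAD, whereas *KCS10*, another epidermis gene, was 976 to 1360 before drought, 439 to 751 at 10 DAD and 840 to 1160 at 13 DAD. The epidermis gene *ATML1* had 206 to 295 before drought and 46.9 to 98.7 at 13 DAD. Of the guard cell markers, *FMA* had 88.9 to 153 before drought and 18.9 to 89.3 at 13 DAD, and *KAT1* 45.9 to 120 and 41.8 to 113. In bulk shoots, fewer cells of a type and less RNA per cell cannot be told apart. Among ethanol-treated plants at 13 DAD, replicate 3 had the highest share of counts in members, 2.16% against 1.29% in the next library. Without replicate 3, 270 members were called lower from 0 to 13 DAD in the test described below.

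As background, drying leaves stop growing before they stop photosynthesizing. Growth by cell expansion needs wall-loosening proteins such as expansins and xyloglucan endotransglucosylases, and is promoted by auxin through small proteins of the SAUR family. Photosynthesis depends on nuclear genes for antenna proteins and the Rubisco small subunit, which are among the most abundant messengers of a green leaf and are repressed when a leaf is stressed or ages. Of the 272 members, 142 belonged to at least 1 of the gene lists used here, and the lists with most members were photosystem and antenna genes, SAUR proteins, pectin enzymes, GDSL lipases, arabinogalactan proteins and lipid transfer proteins.

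The members made up a large part of the messenger pool before drought and very little of it at 13 DAD. They took 17.8 to 18.5% of gene counts in the untreated libraries, 19.1 to 20.8% in water-treated plants at 0 DAD, 8.12 to 13.9% at 10 DAD and 0.558 to 0.745% at 13 DAD. In ethanol-treated plants the shares were 17 to 21.0% at 0 DAD, 6.38 to 11.9% at 10 DAD and 0.810 to 2.16% at 13 DAD, with the 2.16% in replicate 3. The 19 members for photosystems, antennae and Rubisco held most of these counts, 13.6 to 15.1% in water-treated plants at 0 DAD against 5.53 to 5.74% for the 253 other members. Both sets dropped steeply, to 0.406 to 0.552% and 0.152 to 0.193% at 13 DAD in water-treated plants.

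**Figure D1:**
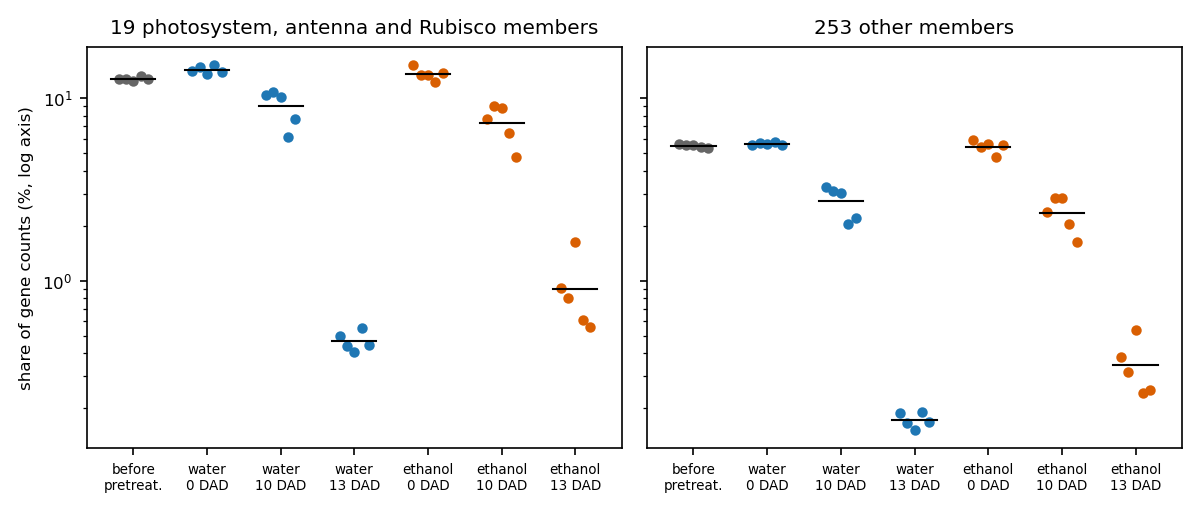
Share of each library's gene counts (%, log axis) taken by the 19 photosystem, antenna and Rubisco members (left) and by the 253 other members (right), with 1 point per library and a line at the mean of 5 libraries in each group. In both panels the 13 DAD libraries lie far below all others, and ethanol-treated replicate 3 is the highest of them.

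In water-treated plants, by the choice of members, the median member kept 3.04% of its 0 DAD level at 13 DAD, with a range of 0.270 to 4.29%. At 10 DAD the same plants still had a median of 39.9%, and members differed widely, from 8.14 to 196%. Between 10 and 25% was left for 62 members, 25 to 50% for 101, 50 to 75% for 60 and 75 to 100% for 30, while 4 members had less than 10% and 15 had more than at 0 DAD. The 3 members just inside the limit were *AT1G52190*, a transporter of the major facilitator superfamily, *AT1G70280* and *AT4G22513*, with log2 differences of -4.51, -4.5 and -4.5, and the 3 genes just outside were *CRK21*, *ESE3* and *AT3G56370*, each at -4.5 when rounded.

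Nearly all members also fell in ethanol-treated plants. All 272 passed the filter on low counts through their 0 DAD libraries, and 269 were called lower at 13 than at 0 DAD by edgeR's quasi-likelihood test (Benjamini-Hochberg adjusted p under 0.1 and a change of at least 2-fold, over all genes tested), where 24.8% of all 17093 genes tested were called lower. The median log2 fold change was -4.44 over members and 0.03 over all genes tested. The 5 libraries at 13 DAD lay wholly below the 5 at 0 DAD for 264 members, against 28.5% of all genes. The median member kept 4.48% of its 0 DAD level, and the log2(mean + 1) difference was -4.5 or lower for 121 members, -4 or lower for 180 and -2 or lower for 262. No member was higher at 13 than at 0 DAD at an unadjusted p under 0.05 by edgeR or by call with DESeq2. The 3 members that were not called lower were *JAL23*, *JAL33* and *ACA1*, described at the end.

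The loss was partly visible at 10 DAD. At that day 178 of the 272 members were called lower than at 0 DAD in ethanol-treated plants (edgeR), where 11.8% of all genes were, and the median log2 fold change was -1.54 against 0.01 over all genes. None was called higher, where 5.74% of all genes were, by edgeR or by DESeq2, although 9 members were higher at an unadjusted p under 0.05. The rule's upper limit on water-treated plants at 10 DAD, which removed 3 genes, works against higher calls here. Nothing is therefore read from their absence. From 10 to 13 DAD, 240 of the 259 members that passed the filter were called lower, against 17.9% of all genes, and none was called higher, against 12.9%, at either the adjusted or the unadjusted p and also with DESeq2. Members with few counts at 13 DAD passed the filter through their 10 DAD libraries, and those too low at both days were not tested. This favours lower calls among the members tested. The median log2 fold change of this step was -2.86 over the members tested and 0.02 over all genes. These steps share the 10 DAD libraries, so their calls are not independent of each other. The share left at 10 DAD ranged from 3.51 to 198% in ethanol-treated plants, and members that had kept much of their level in water-treated plants had also kept it in ethanol-treated plants (Spearman's rho of 0.88 and Pearson's r of 0.86 between the log2 differences over 272 members, a description over genes of the same shoots, with no library in common and with an upper limit set by the rule on one axis).

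**Figure D2:**
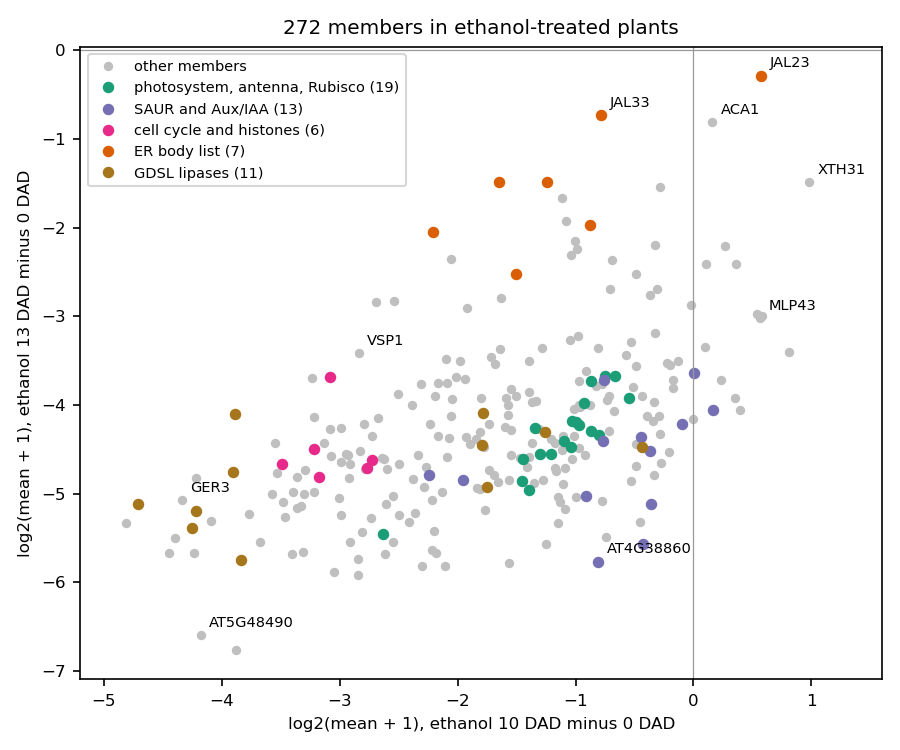
Change of each of the 272 members in ethanol-treated plants, with log2(mean + 1) at 10 DAD minus 0 DAD on the horizontal axis and at 13 DAD minus 0 DAD on the vertical axis, and with selected gene lists in colour. Cell cycle and GDSL lipase members lie to the left, most SAUR members to the right but low on the vertical axis, and *JAL23*, *JAL33* and *ACA1* at the top.

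**Figure D3:**
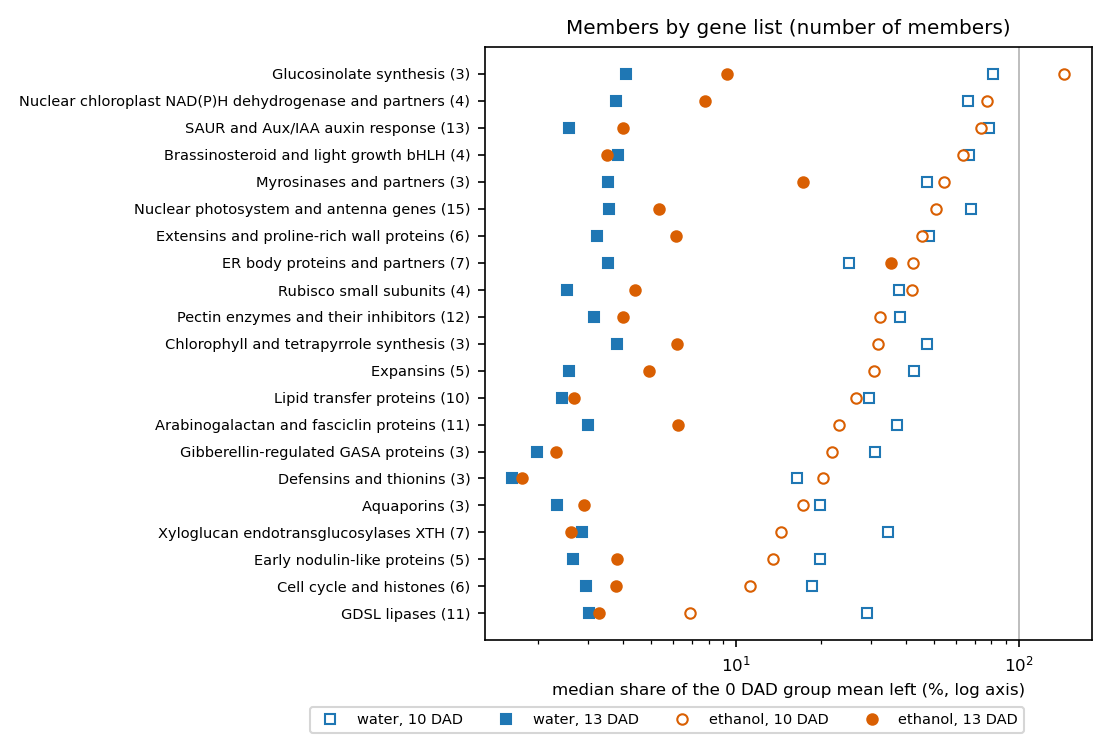
Median share of the 0 DAD group mean left at 10 DAD (open symbols) and 13 DAD (filled symbols) for members of each gene list with at least 3 members, in percent on a log axis, for water-treated (blue squares) and ethanol-treated (orange circles) plants. At 10 DAD the ethanol medians spread from 6.87% for GDSL lipases to 145% for glucosinolate synthesis, and at 13 DAD the 7 ER body members kept 35.3%.

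Photosynthesis genes were the most abundant members, as counts not corrected for gene length. Of 59 nuclear photosystem and antenna genes tested, 53 were called lower at 13 than at 0 DAD in ethanol-treated plants and 1 higher, with a median log2 fold change of -2.86, and 15 of the 59 met the rule. These 15 included the photosystem II antenna genes *CAB1*, *CAB2*, *CAB3*, *LHB1B1*, *LHCB2.2*, *LHCB2.3*, *LHCB3*, *LHCB5* and *LHCB6* and the photosystem I subunits *PSAG*, *PSAH2* and *PSAN*. All 4 genes of the Rubisco small subunit were members. The Rubisco list and those of NAD(P)H dehydrogenase, ER body, GASA, early nodulin-like, tubulin and growth bHLH genes were made after values had been seen. For this and the later lists, the share of all genes called higher from 0 to 13 DAD is not given. Nothing is therefore read from the numbers called higher in a list.

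*RBCS1A* encodes the main small subunit of the carbon-fixing enzyme (AT1G67090, chromosome 1). In ethanol-treated plants its normalized counts were 236639, 186225, 196775, 144198 and 183782 at 0 DAD, 79670, 90598, 88766, 62663 and 50847 at 10 DAD, and 9719, 8371, 18616, 6840 and 5986 at 13 DAD. The groups did not overlap, and replicate 3 was the highest at 13 DAD. The log2 fold change was -1.33 ± 0.16 (SE) at 10 DAD (edgeR adjusted p = 1.08e-06) and -4.19 ± 0.32 at 13 DAD (adjusted p = 1.19e-08). Water-treated plants had 219377 ± 20899 (SD, n = 5) at 0 DAD and 6218 ± 915 at 13 DAD. The 3 other genes followed: *RBCS3B*, *RBCS2B* and *RBCS1B* kept 40.5, 43.3 and 48.5% at 10 DAD and 4.25, 4.26 and 4.5% at 13 DAD in ethanol-treated plants.

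*CAB1* encodes a chlorophyll a/b binding protein of the photosystem II antenna (AT1G29930). Its counts in ethanol-treated plants were 178858, 148736, 144744, 150030 and 153801 at 0 DAD, 79279, 91534, 96450, 66299 and 45943 at 10 DAD, and 7251, 8231, 14437, 6694 and 6175 at 13 DAD. Again the days were fully separated, and the log2 fold change to 13 DAD was -4.12 ± 0.27 (adjusted p = 1.60e-09). *LHB1B1* (AT2G34430), another antenna gene, had less left at both days. It had 63557, 48363, 45851, 37879 and 54074 counts at 0 DAD, 6980, 14133, 12258, 5055 and 1734 at 10 DAD, and 778, 1325, 1767, 1026 and 786 at 13 DAD. One library at 10 DAD was already as low as those at 13 DAD. Its log2 fold changes were -2.62 ± 0.53 at 10 DAD (adjusted p = 0.00358) and -5.39 ± 0.27 at 13 DAD (adjusted p = 8.49e-11).

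Other steps of the light reactions and of chlorophyll synthesis were also represented. *DRT112*, a plastocyanin that carries electrons to photosystem I, went from 41544 ± 5445 at 0 DAD to 2560 ± 1229 at 13 DAD in ethanol-treated plants. The chlorophyll list had 25 genes tested, of which 23 were called lower and none higher, and 3 members. *PORB*, which reduces protochlorophyllide in the light, went from 8958 ± 744 to 2840 ± 1123 at 10 DAD and 305 ± 38.7 at 13 DAD. *CHLM*, a methyltransferase of the magnesium branch, kept 6.21%, and *PCB2*, the divinyl reductase, kept 6.56%. The carbonic anhydrases *CA1* and *CA2* kept 4.62 and 4.62% of their level. Of the nuclear genes for the chloroplast NAD(P)H dehydrogenase, 20 of 25 tested were called lower and 1 higher, and the 4 members *PnsL3*, *PnsB3*, *PnsL4* and *CRR7* kept a median of 77.2% at 10 DAD and 7.74% at 13 DAD.

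The promoters of the photosystem, antenna and Rubisco members held the letters ACGTG, the core of the G-box and of many abscisic acid response elements, more often than promoters at large. Within 250 bases before the annotated start, on either strand, 10 of these 19 promoters (52.6%) had them, against 25.4% of all 272 members and 24.1% of 16921 tested protein-coding genes. For TGTCTC, the auxin response element core, 4 of 13 SAUR members (30.8%) had a match, against 13.6% of all members and 10.4% of all promoters. Other motifs departed too. The 19 photosynthesis promoters had TTGAC and GATAAG in 15.8% each, TGGGCC in 10.5%, CCGAC and TGTCTC in 5.26% each and TAAATGTA in 0%. The SAUR members had TTGAC in 30.8%, GATAAG in 23.1%, ACGTG and TAAATGTA in 15.4% each, and CCGAC and TGGGCC in 7.69% each. Both sets are small, hold neighbouring genes and were not tested. These are counts of letters, and a match is not evidence of a site in use. Over all 272 members the shares for GATAAG were 14.3% (12.6% of all promoters), for CCGAC 9.93% (13.2%), for TTGAC 37.9% (44.6%), for TGGGCC 8.82% (17.5%) and for TAAATGTA 4.78% (3.07%).

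Promoters of 4 antenna and Rubisco members that hold ACGTG and of 2 SAUR members that hold TGTCTC are shown as examples of the motifs counted, read from the RefSeq genome TAIR10.1, 5′ to 3′ in the direction of the gene, with each match on either strand in capitals. In *RBCS2B* the capitals are 2 matches that overlap in the palindrome CACGTG. They lie at chr1:10477635-10477884 (plus strand) for *CAB1*, chr1:10475970-10476219 (minus) for *CAB2*, chr2:14524357-14524606 (plus) for *LHB1B1*, chr5:15382072-15382321 (minus) for *RBCS2B*, chr5:5966786-5967035 (minus) for *SAUR20* and chr4:18125807-18126056 (plus) for *SAUR15*.
CAB1: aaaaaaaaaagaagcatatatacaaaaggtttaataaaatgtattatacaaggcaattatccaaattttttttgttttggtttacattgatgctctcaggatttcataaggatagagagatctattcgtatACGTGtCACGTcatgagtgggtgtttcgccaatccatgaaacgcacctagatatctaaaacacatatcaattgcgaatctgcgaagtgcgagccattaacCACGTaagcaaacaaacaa
CAB2: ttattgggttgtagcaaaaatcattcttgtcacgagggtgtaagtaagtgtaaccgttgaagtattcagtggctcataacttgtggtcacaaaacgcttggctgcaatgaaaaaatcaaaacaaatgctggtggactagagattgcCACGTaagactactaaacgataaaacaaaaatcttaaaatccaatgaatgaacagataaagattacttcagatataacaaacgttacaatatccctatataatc
LHB1B1: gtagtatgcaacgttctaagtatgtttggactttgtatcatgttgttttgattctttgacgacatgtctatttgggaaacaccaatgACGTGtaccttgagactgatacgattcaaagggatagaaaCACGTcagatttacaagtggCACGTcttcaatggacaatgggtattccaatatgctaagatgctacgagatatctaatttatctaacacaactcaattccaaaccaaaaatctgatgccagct
RBCS2B: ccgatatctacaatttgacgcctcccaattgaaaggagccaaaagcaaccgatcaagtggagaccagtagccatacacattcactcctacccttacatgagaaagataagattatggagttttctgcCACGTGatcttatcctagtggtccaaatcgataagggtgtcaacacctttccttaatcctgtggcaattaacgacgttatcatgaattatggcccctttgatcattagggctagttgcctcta
SAUR20: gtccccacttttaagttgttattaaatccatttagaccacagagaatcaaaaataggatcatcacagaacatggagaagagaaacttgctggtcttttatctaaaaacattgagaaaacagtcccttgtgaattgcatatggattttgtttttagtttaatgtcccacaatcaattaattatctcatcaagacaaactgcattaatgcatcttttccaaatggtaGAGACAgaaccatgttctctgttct
SAUR15: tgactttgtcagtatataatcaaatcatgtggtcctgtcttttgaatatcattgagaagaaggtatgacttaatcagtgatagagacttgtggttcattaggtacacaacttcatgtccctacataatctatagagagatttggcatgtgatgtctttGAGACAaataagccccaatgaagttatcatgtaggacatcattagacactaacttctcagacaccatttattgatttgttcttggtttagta

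*CAB1* and *LHB1B1* had 3 matches each, the nearest 19 and 103 bases before the annotated start. The single TGTCTC match of *SAUR20* lay 25 bases before the start, and that of *SAUR15* 92 bases.

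Most of what the SAUR members lost in ethanol-treated plants was lost after 10 DAD. Of 93 SAUR and Aux/IAA genes tested, 45 were called lower at 13 than at 0 DAD in ethanol-treated plants and 19 higher, with a median log2 fold change of -0.87, and 13 genes, all SAUR, were members. Their median share was 73.3% at 10 DAD and 3.98% at 13 DAD, and 2 of the 13 were called lower at 10 DAD. *SAUR20* (AT5G18020) had 311, 225, 267, 292 and 270 counts at 0 DAD, 226, 246, 294, 156 and 89.8 at 10 DAD, and 6.70, 1.6, 9.19, 4.32 and 1.97 at 13 DAD. The first 2 groups overlapped and the last was far below both. The log2 fold change was -0.41 ± 0.26 at 10 DAD (adjusted p = 0.235) and -5.75 ± 0.28 at 13 DAD (adjusted p = 4.74e-11). *AT4G38860*, a neighbour of *SAUR15*, went from 945 ± 129 to 539 ± 216 and then 16.4 ± 5.21.

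Wall-loosening genes differed in timing. Of 19 expansins tested, 14 were called lower at 13 DAD and 1 higher, and 5 were members, of which 3 were called lower at 10 DAD. *EXPA6* (AT2G28950) had 1393, 1316, 1375, 1164 and 1164 counts at 0 DAD, 372, 531, 442, 266 and 218 at 10 DAD, and 103, 39.9, 112, 30.3 and 34.7 at 13 DAD. The 3 days did not overlap, with replicates 1 and 3 highest at 13 DAD, and the log2 fold change to 13 DAD was -4.25 ± 0.35 (adjusted p = 6.45e-07). *EXPA8* kept 473 of 812 counts at 10 DAD and 23.0 at 13 DAD, whereas *EXPB3* had 429 at 10 DAD against 286 at 0 DAD and 35.0 at 13 DAD.

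Xyloglucan endotransglucosylases, which cut and rejoin a wall polymer, had 20 genes tested, of which 13 were called lower and 3 higher, and 7 members with a median of 14.4% left at 10 DAD. *XTH4* went from 1837 to 265 and 68.5 counts and *XTH9* from 2132 to 267 and 55.5, as means at 0, 10 and 13 DAD. *XTH31* (AT3G44990) differed from these at 10 DAD. It had 220, 159, 177, 56.9 and 158 counts at 0 DAD, 307, 330, 340, 302 and 246 at 10 DAD, and 91.1, 65.4, 60.4, 28.1 and 26.9 at 13 DAD. All 10 DAD libraries were above those at 0 DAD, and the log2 fold change of 0.97 ± 0.24 (adjusted p = 0.00673) lay just under the 2-fold limit, which it passed under 6 of 19 alternatives. At 13 DAD it was -1.45 ± 0.37 (adjusted p = 0.0039), with overlapping ranges.

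Arabinogalactan and fasciclin proteins of the cell surface had 27 of 41 tested genes called lower and 6 higher, and 11 members, 10 of them lower at 10 DAD. *FLA9*, among the members with the largest fall in water-treated plants, went from 919 to 91.5 and 17.2 counts in ethanol-treated plants. Pectin enzymes and their inhibitors had 50 of 85 called lower and 9 higher, and 12 members. These were mixed in timing: *AT4G23820*, a pectin lyase-like gene, went from 916 to 120 counts at 10 DAD, while the related *AT4G24780* had 543 at 0 DAD, 699 at 10 DAD and 101 at 13 DAD. Genes for cellulose synthesis gave no member, with 13 of 51 tested called lower and 17 higher.

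Surface lipid and defence peptide members were mostly lower by 10 DAD, with calls for 10 of 11 GDSL lipases, 7 of 10 lipid transfer proteins and 3 of 3 defensins and thionins. Beside these stand 178 of all 272 members, a share near that of the lipid transfer proteins. GDSL lipases had 29 of 51 tested called lower and 7 higher, and their 11 members kept a median of only 6.87% at 10 DAD after ethanol and 29.0% after water, a difference that was not tested for the list. *LTL1* went from 1181 ± 115 to 62.4 ± 22.0 and 31.1 ± 7.90 counts. Lipid transfer proteins had 26 of 56 called lower and 16 higher, and 10 members. *AT5G48490*, of this family, had 2109, 1686, 1927, 1601 and 1691 counts at 0 DAD, 75.3, 203, 143, 50.4 and 21.0 at 10 DAD, and 4.02, 16.0, 40.7, 11.9 and 15.7 at 13 DAD. All 10 DAD libraries were already far below those at 0 DAD, and the log2 fold change to 13 DAD was -6.71 ± 0.38 (adjusted p = 1.33e-08). The defensins and thionins, small antimicrobial peptides, had 16 of 22 tested called lower and 2 higher, and the 3 members *AT3G05730*, *AT1G66100* and *THI2.2* kept a median of 1.75% at 13 DAD.

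The 2 ketoacyl-CoA synthases among the members, which build very-long-chain fatty acids, were *KCS8* and *KCS12*, and *KCS8* went from 778 to 72.7 and 14.2 counts. *GER3* (AT5G20630), a germin-like protein of the wall, had 8192, 7156, 6813, 6871 and 8906 counts at 0 DAD, 366, 472, 352, 427 and 256 at 10 DAD, and 188, 279, 239, 220 and 195 at 13 DAD. The drop lay almost entirely before 10 DAD, where the log2 fold change was -4.32 ± 0.15 (adjusted p = 1.45e-13), against -5.02 ± 0.16 at 13 DAD (adjusted p = 9.02e-13). In water-treated plants it kept 9.34% at 10 DAD, among the 4 lowest of all members.

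The cell division members were lower by 10 DAD too. Of 112 cell cycle and histone genes tested, 56 were called lower at 13 DAD in ethanol-treated plants and 8 higher. All 6 members were already called lower at 10 DAD, with a median of 11.2% left. Beside these stand 178 of all 272 members and 11.8% of all genes at that day. Calls at 10 DAD were not counted for the rest of the list. *HTA6* (AT5G59870), a histone H2A gene, had 1447, 1107, 1121, 1015 and 1260 counts at 0 DAD, 142, 165, 140, 74.3 and 131 at 10 DAD, and 30.1, 33.5, 68.3, 47.6 and 28.2 at 13 DAD. The 3 groups did not overlap. The log2 fold changes were -3.17 ± 0.17 (adjusted p = 2.00e-09) and -4.81 ± 0.22 (adjusted p = 3.03e-11). *SYP111*, the syntaxin of the cell plate, went from 228 to 26.1 and 16.9 counts, and the histone genes *HTA11*, *AT5G10390* and *AT5G10400* to 36.9, 53.2 and 83.4 at 10 DAD. *PCNA1* and *MAD2*, of DNA replication and the spindle checkpoint, were named after their values had been seen and kept 20.6 and 18.2% at 10 DAD.

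Of 31 aquaporins tested, 13 were called lower and 6 higher, and 3 were members. *DELTA-TIP* (AT3G16240), a water channel of the vacuole membrane, had 10845, 7255, 7704, 5481 and 8706 counts at 0 DAD, 666, 953, 893, 531 and 534 at 10 DAD, and 181, 230, 442, 162 and 146 at 13 DAD. The 3 days were separate, with replicate 3 again highest at 13 DAD. The log2 fold changes were -3.46 ± 0.23 (adjusted p = 3.76e-07) and -5.05 ± 0.32 (adjusted p = 1.42e-08). *TIP2*, a second vacuolar channel, went from 14361 to 4836 and 832 counts, and *PIP2;8*, of the plasma membrane, went from 167 to 28.7 and 3.45.

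**Figure D4:**
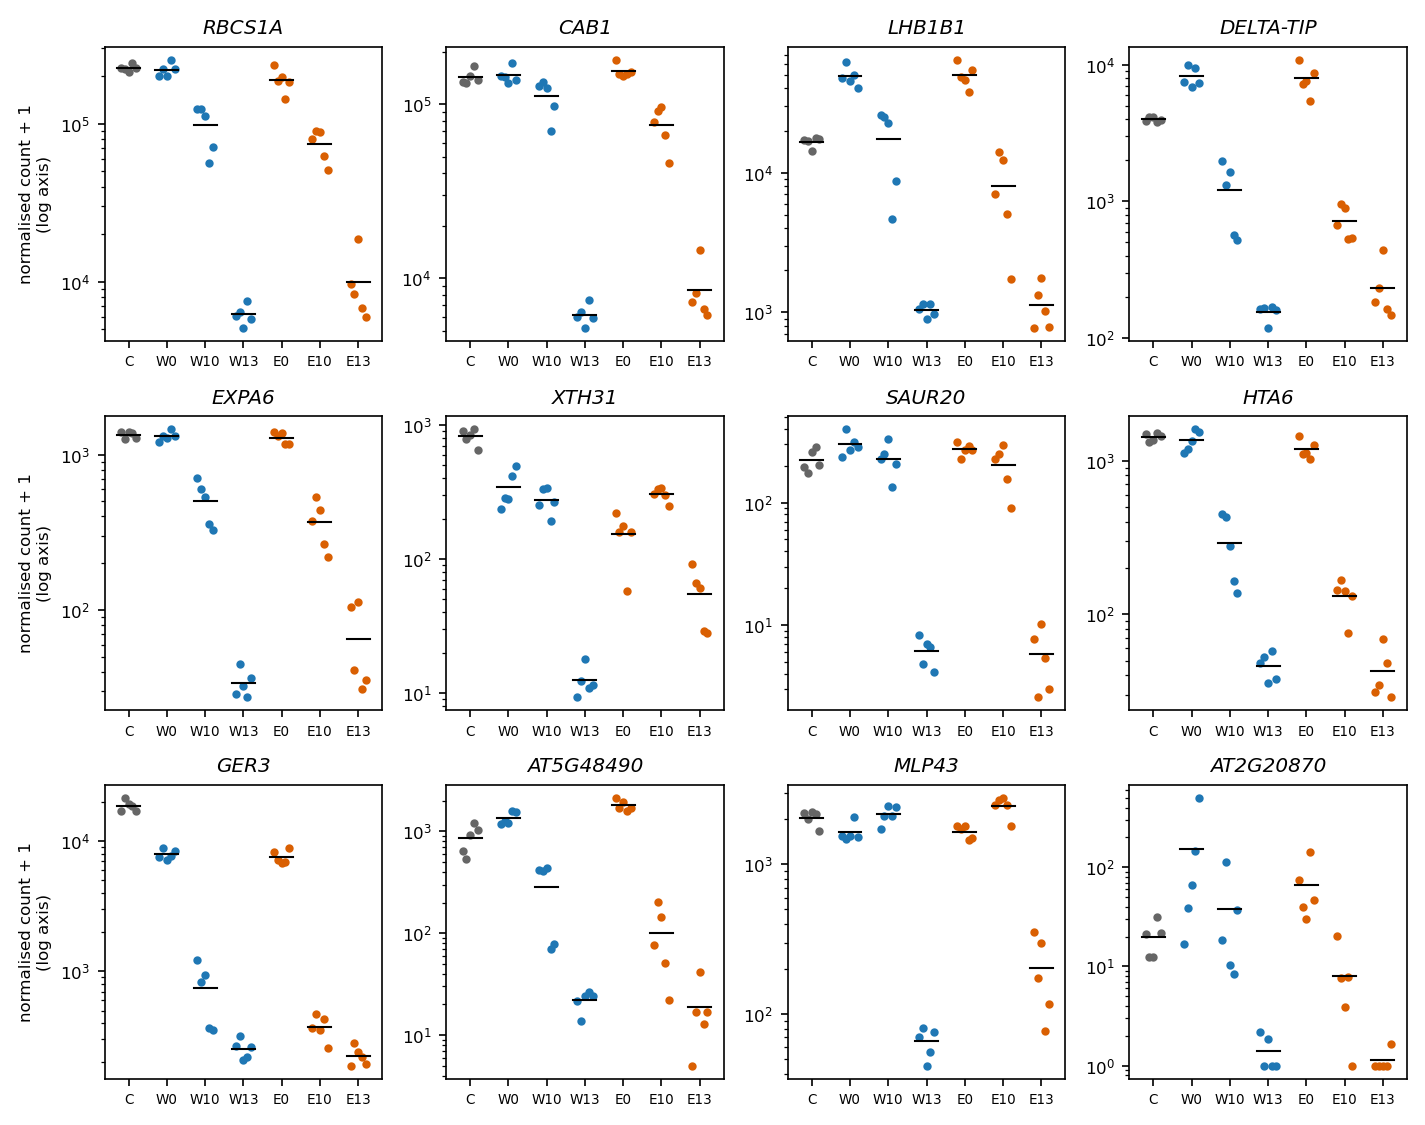
Normalized count + 1 (log axis) of 12 members in each of the 35 libraries, with a line at the group mean, where C is before the pretreatment, W water-treated and E ethanol-treated plants, and the number is the day after drought. *SAUR20* and *MLP43* stay high until 10 DAD, *GER3* and *HTA6* are low by then, and the W13 libraries, on which the members were chosen, are low in every panel.

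The remaining lists had few members or moved less as a whole. From 0 to 13 DAD in ethanol-treated plants, 18 of 44 extensins and proline-rich wall proteins were called lower and 7 higher, with 6 members, and 18 of 43 wax and cutin genes were lower and 10 higher, with 2 members. Of 89 class III peroxidases 47 were tested, 19 were lower and 16 higher, and *AT5G64120* was the only member. Nitrate uptake and assimilation had 13 lower and 13 higher of 40 tested, with the members *AT1G52190* and *ASN2*, an asparagine synthetase. Jasmonate synthesis and storage proteins had 7 lower and 13 higher of 32, with *VSP1* as the member, and type-A response regulators had 5 lower of 7 and no member.

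Myrosinases and their partners had 12 lower and 5 higher of 33 tested, with 3 members, and beta-glucosidases and beta-galactosidases 19 lower and 7 higher of 45, with 2 members. Of the lists made after values had been seen, tubulins had 13 lower and 1 higher of 16, with *TUB5* as the member, and GASA proteins, which respond to gibberellin, had 6 lower and 2 higher of 9, with 3 members. Growth bHLH factors had 6 lower and 1 higher of 7, and the 4 members *KDR*, *HBI1*, *BEE2* and *PRE1* kept a median of 63.7% at 10 DAD and 3.5% at 13 DAD. Early nodulin-like proteins had 7 lower and 2 higher of 11, and their 5 members kept 13.5 and 3.79%.

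A small set of members was as high or higher at 10 DAD than at 0 DAD. In water-treated plants the highest shares at 10 DAD belonged to *AT5G35480*, *GH9B13*, *MLP43*, *AT1G29460*, *RL3*, *EXPB3*, *AT5G22580* and *AT2G22122*. *MLP43* (AT1G70890), a major latex protein-like gene, had 1794, 1709, 1805, 1450 and 1506 counts at 0 DAD, 2501, 2674, 2760, 2487 and 1813 at 10 DAD, and 350, 174, 298, 75.7 and 115 at 13 DAD in ethanol-treated plants. Each 10 DAD library was above each 0 DAD library, but the log2 difference of 0.58 ± 0.11 (adjusted p = 1.67e-04) was under the 2-fold limit. At 13 DAD it was -2.96 ± 0.37 (adjusted p = 3.10e-05). The glucosinolate list, defence compounds of the cabbage family, had 22 of 28 tested genes called lower at 13 DAD and 2 higher. Its 3 members, *IPMI1*, *IPMI2* and *IMD1*, all of the chain-elongation steps that begin with methionine, had a median of 145% of their 0 DAD level at 10 DAD and 9.30% at 13 DAD in ethanol-treated plants, and 81.2% at 10 DAD after water, and none was called at 10 DAD.

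Of the 8 members with the smallest fall from 0 to 13 DAD in ethanol-treated plants, 4 were ER body genes (*JAL23*, *JAL33*, *JAL22* and *PBP1*), and the others were *ACA1*, *XTH31*, *AT2G28410* and *AT3G10080*. ER bodies are compartments of the endoplasmic reticulum, known in seedlings and roots of the cabbage family, that store the beta-glucosidase PYK10, and jacalin-related lectins bind that enzyme. Of a list of 16 such genes, made after these values had been seen, 14 were tested at 13 against 0 DAD, 11 were called lower and none higher. The 7 members were *PYK10*, *BGLU18*, *NAI2*, *PBP1*, *JAL22*, *JAL23* and *JAL33*, and 5 of them were called lower. They kept a median of 35.3% at 13 DAD in ethanol-treated plants and, by the choice of members, 3.52% in water-treated plants. Membership of most of them depended on single water-treated libraries. *BGLU18*, *NAI2* and *PBP1* were no longer members when any of 2, 3 and 3 such libraries was left out, and *JAL23* and *JAL33* are described below. *PYK10* and *JAL22* stayed members whichever of the 15 libraries was left out.

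*JAL23* (AT2G39330) had 54.1, 132, 159, 128 and 62.7 counts at 0 DAD, 157, 125, 158, 128 and 235 at 10 DAD, and 87.1, 55.9, 85.3, 63.8 and 147 at 13 DAD in ethanol-treated plants. The ranges overlapped, and the log2 fold change to 13 DAD was -0.18 ± 0.33 (adjusted p = 0.641). Its sign turned to 0.10 when only library size was used for scaling. In water-treated plants it had 476, 31.1, 749, 60.1 and 141 at 0 DAD, so its place among the members rests on a few high libraries, and it was not a member without replicate 3 of that group. At 13 DAD the water-treated libraries had 3.61, 11.4, 13.6, 2.82 and 13.7.

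*JAL33* (AT3G16450) had 60.7, 175, 204, 78.9 and 188 counts at 0 DAD and 65.7, 68.6, 139, 21.6 and 127 at 13 DAD in ethanol-treated plants, again with overlap and a log2 fold change of -0.68 ± 0.47 (adjusted p = 0.225). Water-treated plants at 13 DAD had 9.63, 2.53, 11.1, 0 and 0. It was no longer a member when any of 4 water-treated libraries was left out. *PYK10* (AT3G09260) itself fell, with 723, 1073, 1358, 505 and 1135 counts at 0 DAD and 172, 150, 181, 84.3 and 240 at 13 DAD, a log2 fold change of -2.46 ± 0.31 (adjusted p = 1.77e-05), and the groups were separate.

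*ACA1* (AT3G52720), an alpha carbonic anhydrase, was the third member that was not called. It had 204, 318, 314, 228 and 308 counts at 0 DAD, 337, 275, 423, 238 and 260 at 10 DAD, and 263, 137, 268, 50.8 and 59.6 at 13 DAD. Within the 13 DAD group, 2 libraries lay within the earlier range and 3 were below it. The log2 fold change of -0.76 ± 0.44 (adjusted p = 0.155) reached the 2-fold limit, and the call, without replicate 1 (-1.06, adjusted p = 0.0656) or replicate 3 (-1.02, adjusted p = 0.0769). In water-treated plants at 13 DAD it had 6.02, 22.7, 5.11, 4.23 and 18.9 counts.

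**Figure D5:**
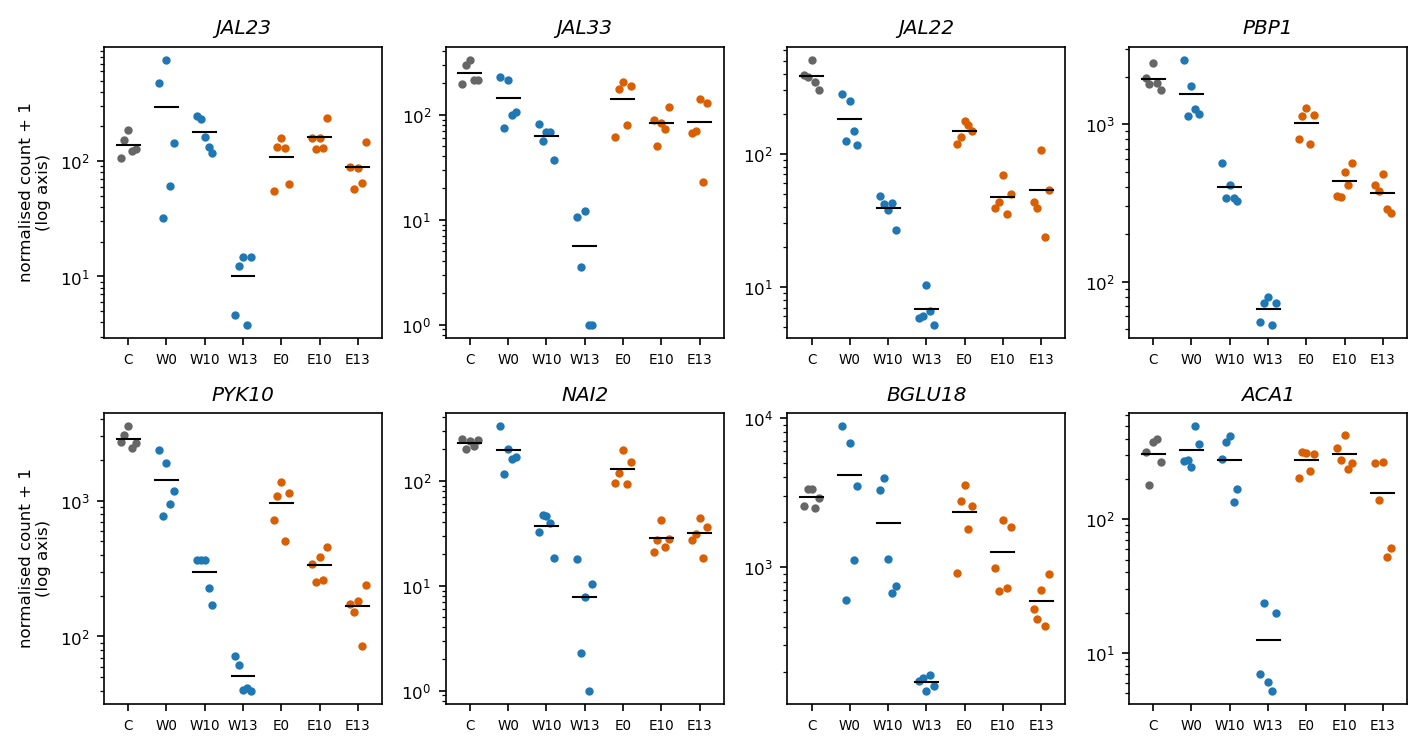
Normalized count + 1 (log axis) of the 7 ER body members and *ACA1* in each of the 35 libraries, with lines at group means and groups named as C (before the pretreatment), W (water-treated) and E (ethanol-treated) with the day after drought. The W13 libraries are the lowest group in every panel, which the choice of members favours, and the E13 libraries lie above them.

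Ethanol- and water-treated plants were compared directly at each day. At 13 DAD the rule had chosen low values in the water-treated libraries, which pulls members toward higher in ethanol, so nothing is read from the number called. Members with few counts in the water-treated libraries could pass the filter only through the ethanol-treated ones, which also favours higher calls. Of the 177 members with enough counts in these 10 libraries, 51 were called higher in ethanol-treated plants, beside 8.79% of all genes. None was called lower by edgeR, beside 4.78% of all genes, with 2 lower at an unadjusted p under 0.05 and 1 called lower by DESeq2. One was also called lower without replicate 3 or 4 of the ethanol-treated or replicate 3 or 5 of the water-treated plants. The libraries of *JAL23*, *JAL33* and *ACA1* in both groups are given above as a description, and no test of single members is given for this comparison.

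At 10 DAD, where the rule set only an upper limit on the water-treated plants, 3 of 270 members tested were called lower in ethanol-treated plants, against 0.0433% of all genes, and none higher, against 0.0247%. At an unadjusted p under 0.05, 55 were lower and 5 higher, DESeq2 called 14 lower and 1 higher, and 15 were called lower with all 7 groups in one fit. The shares of all genes by these other measures are not given, so nothing is read from these larger numbers. The 3 members called lower in the main test were *ENODL8*, *AT5G20740* and *AT5G45670*, named because so few were called. The median log2 difference was -0.38 over the members tested and -0.00 over all genes. The number called lower was 0 without any of 6 single libraries, namely replicates 3, 4 and 5 of the ethanol-treated and replicates 1, 2 and 3 of the water-treated plants, 5 without replicate 2 of the ethanol-treated plants, and 12 without replicate 4 of the water-treated plants. At 0 DAD, where the rule used the water-treated level, 1 of 272 was called lower (0.029% of all genes), *AT1G68238*, with 83.5 ± 20.5 counts in ethanol-treated and 173 ± 29.6 in water-treated plants. That call was lost without replicate 3 or 4 of the ethanol-treated or replicate 2 of the water-treated plants. None was called higher (0.0696% of all genes) by edgeR or DESeq2. At an unadjusted p under 0.05, 17 were higher and 29 lower, with no share of all genes given for that p.

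Some members were called higher or lower over the days of the pretreatment. Between untreated plants and ethanol-treated plants at 0 DAD, 3 d later, 10 of 272 members were called higher, against 1.77% of all genes, and 10 lower, against 2.15%, with a median log2 fold change of 0.01 over members and 0.01 over all genes. At an unadjusted p under 0.05 and with no limit on size, 72 members were higher and 77 lower. The share of all genes at that p is not given, so nothing is read from these numbers. This comparison spans 3 d of growth as well as the ethanol, and water-treated plants at 0 DAD had the same 3 d. Higher were *LHB1B1*, *LHCB2.3*, *EXPA8*, *XTH6*, *DELTA-TIP*, *GASA6*, *CYCP4;1*, *AT4G38860*, *AT5G48490* and *AT2G20870*. Lower were *GER3*, *XTH31*, *PYK10*, *JAL22*, *GH9C2*, *GRP5*, *RBCS1B*, *AZI1*, *VSP1* and *AT1G54010*.

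*LHB1B1* had 17021, 16843, 14382, 17601 and 17328 counts in untreated plants, all far below the 0 DAD libraries given above, a log2 fold change of 1.59 ± 0.10 (adjusted p = 5.54e-10). *GER3* had 17066, 21236, 19161, 18409 and 16939, all above the 0 DAD libraries, with -1.28 ± 0.09 (adjusted p = 1.60e-10). *XTH31* had 901, 794, 847, 929 and 648, with -2.37 ± 0.26 (adjusted p = 1.73e-04). Water-treated plants at 0 DAD stood at 49153, 7925 and 343 counts for these 3 genes, and ethanol- minus water-treated log2 differences at that day were 0.03 ± 0.12 for *LHB1B1* (adjusted p = 0.961), -0.05 ± 0.09 for *GER3* (adjusted p = 0.897) and -1.10 ± 0.32 for *XTH31* (adjusted p = 0.239). The rule used the water-treated level of that day. *VSP1*, a vegetative storage protein induced by jasmonate, was uneven, with 484, 1584, 2322, 807 and 975 before the pretreatment and 155, 325, 535, 646 and 425 at 0 DAD in ethanol-treated plants. Its log2 fold change was -1.57 ± 0.52 (adjusted p = 0.0662), the ranges overlapped, and leaving out any of 4 libraries, replicates 2 and 3 of the untreated or 2 and 5 of the ethanol-treated plants, ended the call (adjusted p = 0.125 to 0.14).

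The largest fall in water-treated plants was that of *AT2G20870*, annotated as a cell wall protein precursor. It had 16.0, 37.9, 66.0, 145 and 495 counts at 0 DAD and 1.20, 0, 0.852, 0 and 0 at 13 DAD, so its mean at 0 DAD was carried by replicate 5, without which it was not a member. In ethanol-treated plants it had 73.8, 38.7, 29.3, 141 and 46.0 at 0 DAD, and 4 of the 5 libraries at 13 DAD held none, with 0.655 in the other. At this depth no fold is given.

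The members were short genes with few exons. The median annotated transcript was 1237 bases for members and 1731 for 16921 tested protein-coding genes, and the median protein had 258 and 378 residues. A single exon made up 31.2% of members and 13.9% of all tested genes. GC content of the transcripts was alike, with medians of 41.2 and 41.3%, but SAUR members had 36.9% and the 19 photosystem, antenna and Rubisco members 43.4%. The members lay on all 5 nuclear chromosomes, with 65, 39, 55, 50 and 63 on chromosomes 1 to 5.

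Some members were neighbours. With at most 1 protein-coding gene between, 40 members formed 17 runs, the longest of which was 4 SAUR genes, *AT1G29430*, *SAUR63*, *AT1G29450* and *AT1G29460*, at chr1:10302585-10308246. Runs of 3 were *CAB3*, *CAB2* and *CAB1* at chr1:10472280-10479114, *RBCS3B*, *RBCS2B* and *RBCS1B* at chr5:15376988-15385320, *AZI1*, *EARLI1* and *AT4G12500* on chromosome 4, and *AT4G38840*, *SAUR15* and *AT4G38860* at chr4:18124978-18131284. Near-identical copies limit how reads can be assigned. At 95% identity over at least 100 bases, 10 members matched another gene of the table, among them *CAB1* with *CAB2* and *CAB3*, *RBCS2B* with *RBCS3B*, and *SAUR63* with *SAUR68*, so counts within these groups are uncertain. A further 6 members, *CA1* and *DWF1* among them, overlap another annotated gene on the same strand, and since the authors counted a read for each gene it overlapped, these counts may hold reads of the partner.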

How the data were processed

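Shoot RNA from 35 plant samples was sequenced by a multiplexed library protocol. Per the labels and the study's methods, the authors trimmed the forward reads with Trimmomatic, mapped them to TAIR10 with HISAT2 and deposited raw counts per gene from featureCounts, using strand and counting a read for each gene it overlapped. The deposited normalized counts are a signal made by the authors by dividing the counts of each library by 1 size factor, and are not corrected for gene length.

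The members were found on the normalized counts, with a pseudocount of 1. Members and gene lists were chosen with earlier results of these data known: 22 lists were set with the design, of which 2 had a pattern corrected once matched names had been seen, and 7 were added after values had been seen. Each of 7 comparisons was tested on the raw counts of its own 10 libraries with edgeR 4.0.16 in R 4.3.3 (TMM, filterByExpr, robust quasi-likelihood F-test), with Benjamini-Hochberg adjustment over all genes tested, and called at an adjusted p under 0.1 and an absolute log2 fold change of at least 1. DESeq2 1.42.0, other scalings, filters, thresholds and fits, a replicate block and leaving out each library were alternatives. The test was tried on simulated counts first. Library totals of 3589540 to 13440389 limit the precision of genes with few counts.

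The rule for named genes took the members with the highest level, with the largest and smallest falls, with the highest and lowest share left at 10 DAD, those not called, those next to the limit and up to 5 members of each list, 101 genes in all. Other genes named in the text were chosen after their values were seen. Gene models, motifs and promoters came from RefSeq TAIR10.1, and 26720 of 27417 gene identifiers matched. Near-identical copies were found with BLAST 2.17.0.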

Additional observations from a re-analysis of the deposited data

Results flagged for a closer look

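In groups of 5 libraries, 10 of 126 groups of values of the genes shown had 1 library far from the others, by Dixon's ratio above 0.71, which chance gives in about 1 in 20 groups. Among ethanol-treated plants at 13 DAD, replicate 3 was far above the others for *CAB1* (14437 normalized counts, the next 8231) and for *DELTA-TIP* (442, the next 230), and it was also the library with the highest share of counts in members. In the same group, replicate 5 alone had any count of *AT2G20870* (0.655 normalized counts).

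*AT2G20870* was uneven in water-treated plants as well, with 495 in replicate 5 at 0 DAD, where the next library had 145, and 113 in replicate 2 at 10 DAD, where the next had 36.4. *MLP43* had 2068 in replicate 4 of the water-treated plants at 0 DAD, above 1553 in the next, and 1813 in replicate 5 of the ethanol-treated plants at 10 DAD, below 2487 in the next. *LHB1B1* had 14382 in replicate 3 of the untreated plants, below 16843 in the next. *CAB1* had 178858 in replicate 1 of the ethanol-treated plants at 0 DAD, above 153801 in the next, and *DELTA-TIP* had 118 in replicate 3 of the water-treated plants at 13 DAD, below 159 in the next.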

How the results depend on the processing

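Of 589 alternatives of the 31 tests of named members, 574 kept the call and the direction. The sign of *JAL23* from 0 to 13 DAD in ethanol-treated plants turned to 0.10 with scaling by library size only, and the cause was not tested. The numbers of members called lower in ethanol-treated plants were 269 to 270 from 0 to 13 DAD, 163 to 191 from 0 to 10 DAD and 234 to 245 from 10 to 13 DAD when single libraries were left out.

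Counts of few calls moved most, with causes not tested. No share of all genes is set beside the alternative counts, so nothing is read from their size. Between ethanol- and water-treated plants at 10 DAD, the 3 members called lower became 14 with DESeq2, 15 with all 7 groups in one fit, 5 with a non-robust dispersion, 0 at an adjusted p under 0.05 and 0 to 12 with single libraries left out, and the 0 called higher became 1 with DESeq2 and with library size only. At 13 DAD the 0 called lower became 1 with DESeq2, and 0 to 1 with single libraries left out. At 0 DAD the 1 called lower became 2 with DESeq2 and with a non-robust dispersion, and 0 to 1 with single libraries left out.

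In no comparison did all pairs of same-numbered libraries deviate together with an r over 0.1, so they were not treated as pairs in the main test. Whether same-numbered libraries shared any handling was not tested. With the replicate block, 19 members were called lower and 1 higher in ethanol- than in water-treated plants at 10 DAD, and 1 lower at 13 DAD. The shares of all genes with that block are not given.

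The number of members depended on the rule. It was 107 with a pseudocount of 10, 455 with a fall of at least 4 and 114 with a fall of at least 5. With single water-treated libraries left out it was 264 to 293, and 216 members stayed in each of those. On counts scaled to library totals the number was 114. The pseudocount was not rescaled with those counts, so scaling and a relatively larger pseudocount cannot be told apart there. That number is therefore not read as an effect of scaling. The median log2 difference from 0 to 13 DAD in ethanol-treated plants was -3.72 with a pseudocount of 10, which shrinks low levels by construction, against -4.39.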
